A study of Mus musculus with 42 samples.

Results

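The Tcl1 family of the mouse comprises Tcl1 and 5 neighbouring genes, Tcl1b1 to Tcl1b5. Its expression in early embryos was read from every probe set annotated to one of the 6 symbols, alone or jointly with another gene. This gave 4 of the 45101 probe sets on the array, each naming a single gene, and so 4 of the 18194 genes that the array names alone: 1422458_at for Tcl1, 1448981_x_at for Tcl1b1, 1420570_x_at for Tcl1b3 and 1420423_at for Tcl1b4. Tcl1b2 and Tcl1b5 are named by no probe set and were not analysed here at the RNA level. The 2 probe sets ending in _x_at (Tcl1b1 and Tcl1b3) are of the class that Affymetrix marks as able to hybridise with similar transcripts, so their signal may include RNA of other Tcl1b copies.

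Proteins of the Tcl1 family are small adaptors without enzyme activity of their own. They bind the pleckstrin homology domain of Akt, a serine/threonine kinase that acts below phosphoinositide 3-kinase (PI3K) in growth and survival signalling, and favour its activation. Tcl1 is best known as an oncogene of T-cell leukaemia. In the mouse it is also an egg transcript, and early embryos without maternal Tcl1 cleave poorly. The egg supplies the fertilised embryo with such maternal RNAs, most of which are cleared as the embryonic genome is switched on.

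The arrays came from B6D2F1 preimplantation embryos, injected as fertilised 1-cell embryos and collected 20 h or 44 h afterwards. Injected embryos received a morpholino (MO), an antisense oligomer that blocks the use of an mRNA, against Oct4 (gene symbol Pou5f1), Sall4 or Nanog, or a control MO whose target sequence is absent from the mouse. All embryos were grown in Human Tubal Fluid with a serum supplement. There were 14 groups with 3 arrays each, labelled as biological replicates, and the number of embryos behind an array is not given in the labels. At 20 h the groups were uninjected and Oct4 MO embryos of an Oct4 experiment, uninjected and Sall4 MO embryos of a Sall4 experiment, and uninjected, control MO and Nanog MO embryos of a Nanog experiment. At 44 h the Nanog experiment again held uninjected, control MO and Nanog MO embryos. One set of 44 h uninjected and control MO embryos, labelled for both the Oct4 and the Sall4 experiment, served Oct4 MO and Sall4 MO embryos. An MO need not lower its target mRNA, so these arrays do not check the knockdown.

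The deposited values are linear intensities on 2 scales. Array medians ran from 193 to 227 on the 18 arrays of the Nanog experiment and from 26.1 to 33.3 on the other 24, so levels were never compared between these sets. The 12 control, uninjected and MO comparisons within a time were all made inside one set. In the Oct4 and Sall4 set the 20 h and 44 h arrays belong to differently labelled experiments, and there time and experiment cannot be told apart. Of 8 oocyte and embryo markers, 7 were on the array and each of the 7 exceeded the array median on at least 1 array of every group. The 44 h Pou5f1 intensity was 2218 ± 260 (SD, n = 3) with the Oct4 MO and 3925 ± 456 with the control MO. Sall4 read 3662 ± 462 with its own MO against 3169 ± 385 with the control MO, and Nanog 2687 ± 1129 with its own MO against 3828 ± 110.2.

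The family genes lie side by side on chromosome 12 in the order Tcl1b2, Tcl1b1, Tcl1b5, Tcl1b3, Tcl1b4 and Tcl1, with Tcl1 on the opposite strand. The RefSeq promoter windows (build GRCm38.p6, each spanning 300 bases around the annotated start of the gene) were compared because the members moved together over time. All 6 genes had a window. The 10 pairs of Tcl1b windows were 92.3% to 98.6% identical over aligned stretches of 206 to 287 bases, and their longest shared runs were 32 to 167 bases. Between the Tcl1 window and any Tcl1b window the longest shared run was 9 bases. A run of 25 bases was shared by all 5 Tcl1b windows. Searched in the printed direction only, this run was in no other of the 32851 promoter windows in the table. The shared runs between pairs of windows were likewise sought in a single direction. It is printed in capitals, with flanking bases in lower case, to let the copies be compared. The windows are on the plus strand at chr12:105159499-105159593 (Tcl1b1), chr12:105146789-105146883 (Tcl1b2), chr12:105190795-105190854 (Tcl1b3), chr12:105202178-105202272 (Tcl1b4) and chr12:105176153-105176247 (Tcl1b5). The Tcl1b3 window begins at the run itself, so no bases before it are shown.
Tcl1b1: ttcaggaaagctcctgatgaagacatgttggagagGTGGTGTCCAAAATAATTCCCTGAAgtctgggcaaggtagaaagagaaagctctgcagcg
Tcl1b2: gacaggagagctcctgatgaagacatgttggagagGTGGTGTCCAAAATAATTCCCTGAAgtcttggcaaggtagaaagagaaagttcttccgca
Tcl1b3: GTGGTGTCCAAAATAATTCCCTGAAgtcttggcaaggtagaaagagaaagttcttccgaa
Tcl1b4: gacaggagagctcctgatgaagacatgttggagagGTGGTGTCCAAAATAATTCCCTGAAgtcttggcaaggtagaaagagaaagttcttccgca
Tcl1b5: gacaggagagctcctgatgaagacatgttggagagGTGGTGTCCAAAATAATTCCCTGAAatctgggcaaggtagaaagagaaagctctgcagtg

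Counted from the annotated start of the gene, the run begins at -170 in Tcl1b1, -195 in Tcl1b2, -250 in Tcl1b3, -182 in Tcl1b4 and -156 in Tcl1b5. Motif letters were searched on both strands of the windows. The E-box letters CANNTG were found in all 6 windows, and in 72.31% of all windows. The octamer ATGCAAAT, the sequence that Oct4 and related POU factors read, was in none of the 6 and in 1.74% of all windows. The TATA box letters TATAAA (13.62% of windows) and the TAATTG element of the oocyte homeobox factor Nobox (8.0%) were likewise in none of the 6. The letters TTTAAG, chosen after the windows were seen, were in 4 of the 6 (Tcl1b1, Tcl1b2, Tcl1b3 and Tcl1b5) and in 13.49% of all windows.

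All 4 measured members fell from 20 h to 44 h in uninjected embryos. In the Nanog experiment, where both times belong to one labelled experiment, Tcl1 retained 3.95% of its 20 h mean intensity, Tcl1b1 9.74%, Tcl1b3 5.49% and Tcl1b4 1.61%. The uninjected Tcl1 arrays read 5457, 5349 and 6849 at 20 h and 146, 365 and 186 at 44 h. Those of Tcl1b1 read 8099, 7605 and 9427 at 20 h and 591, 917 and 938 at 44 h. Every 20 h array lay above every 44 h array for both genes, by a wide margin. Tcl1b3 read 7438, 5919.9 and 7488 at 20 h and 630.4, 277 and 238 at 44 h. Tcl1b4 gave 4026, 2531 and 4918 at 20 h and 29.99, 59.0 and 95.8 at 44 h. Neither gene overlapped between the times, and the 44 h values of Tcl1b4 lay well under the array medians while those of Tcl1b3 lay above them.

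**Figure D1:**
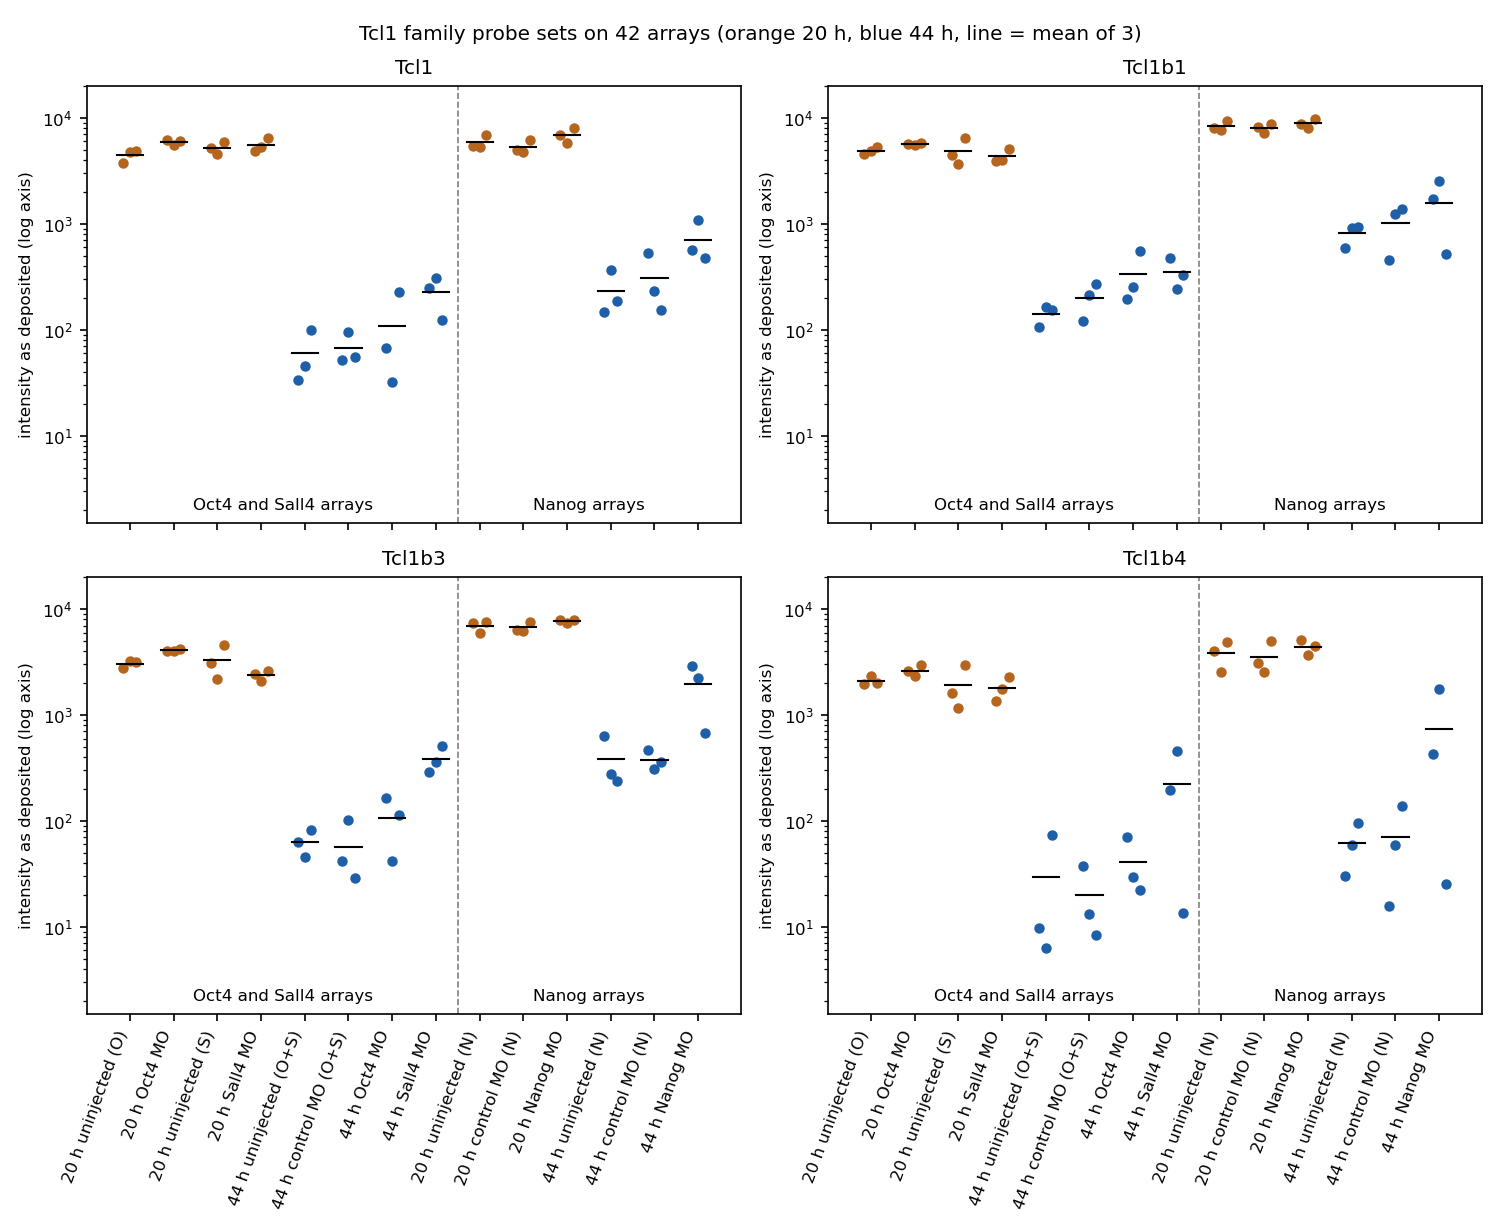
Intensity of the Tcl1, Tcl1b1, Tcl1b3 and Tcl1b4 probe sets on all 42 arrays, on a log axis. Each point is 1 array (orange, 20 h; blue, 44 h), black lines are means of the 3 arrays of a group, letters in brackets name the experiment (O, Oct4; S, Sall4; N, Nanog), and the dashed line separates the 2 intensity scales. In every panel the 20 h points stand above the 44 h points of the same scale, and the Nanog MO and Sall4 MO groups are among the highest at 44 h.

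The test was limma's moderated statistic on log2(intensity + 16), fitted over all 42 arrays and adjusted by the Benjamini-Hochberg method over 25339 probe sets. A probe set was called at an adjusted p under 0.05. Adding 16 before taking logs understates the change of low values. In uninjected embryos of the Nanog experiment the log2 change was -4.66 (SE 0.44, adjusted p = 2.99e-09) for Tcl1. It was -3.36 (SE 0.41, adjusted p = 2.86e-07) for Tcl1b1, -4.25 (SE 0.41, adjusted p = 5.73e-09) for Tcl1b3 and -5.67 (SE 0.85, adjusted p = 6.4e-06) for Tcl1b4. All 4 members were called lower, against 17.3% of all probe sets tested, and all 4 separated the times without overlap, against 24% of probe sets lower on every 44 h array. The Tcl1b4 fall was the 10th largest among all 25339 probe sets, and the Tcl1 fall the 100th. Because the arrays measure bulk RNA of whole embryos, fewer cells holding a transcript and less of it per cell cannot be told apart.

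Control MO embryos showed the same order of change. Tcl1 read 5000.1, 4715.5 and 6124 at 20 h and 534, 231.5 and 154 at 44 h. Tcl1b1 read 8162, 7201 and 8751 at 20 h and 459, 1235 and 1373 at 44 h. The first control array at 44 h was the highest of its group for Tcl1 and the lowest for Tcl1b1. Tcl1b3 went from 6393, 6248 and 7526 to 472, 308 and 357. Tcl1b4 went from 3072, 2556 and 5018 to 15.6, 58.9 and 138. The log2 changes were -4.21, -3.10, -4.11 and -5.58 in the order Tcl1, Tcl1b1, Tcl1b3 and Tcl1b4, and all 4 were called lower, against 17.2% of probe sets, and none overlapped between the times, as for 26.3% of probe sets. The change over time in control MO embryos did not differ from that in uninjected embryos for any member by the test of that difference (log2 differences of 0.09 to 0.46, each adjusted p = 1.00), in which 0.0237% of probe sets were called. The 95% intervals of these differences reached from -0.81 to 1.72 for Tcl1 and from -2.38 to 2.55 for Tcl1b4.

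The family RNAs fell in Nanog MO embryos as well. Tcl1 read 6879, 5794 and 8093 at 20 h and 572, 1087 and 471 at 44 h, which left 10.3% of the 20 h mean. Tcl1b1 read 8809, 8045 and 9862 at 20 h and 1701, 2512 and 521 at 44 h, which left 17.7%. Tcl1b3 read 7855, 7349 and 7949 at 20 h and 2902, 2254 and 680.2 at 44 h, leaving 25.2%. Tcl1b4 read 5065, 3723 and 4470.1 at 20 h and 432, 1749 and 25.3 at 44 h, leaving 16.6%. The third Nanog MO array at 44 h was the lowest of its group for all 4 genes. Its Tcl1, Tcl1b1 and Tcl1b4 values lay inside the control MO ranges at 44 h. The 4 log2 changes (-3.34, -2.74, -2.22 and -3.78) were all called lower, against 13.3% of probe sets, and no member overlapped between the times, as for 20.3% of probe sets.

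In the Oct4 and Sall4 set the uninjected embryos at 44 h (1 shared group) were set against the uninjected 20 h embryos of each experiment. These 2 comparisons share their 44 h arrays. Tcl1 read 33.6, 45.4 and 100.4 at 44 h, against 3727, 4812 and 4846 at 20 h in the Oct4 experiment and 5213, 4594 and 5949 in the Sall4 experiment. Tcl1b1 read 106, 163 and 152 at 44 h, against 4562, 4844 and 5296 or 4507.5, 3691 and 6392 at 20 h. Both genes dropped far below every 20 h array. Tcl1b3 read 62.7, 46.2 and 82.3 at 44 h, against 2769, 3225 and 3179.9 or 3127, 2206 and 4554 at 20 h. Tcl1b4 read 9.68, 6.33 and 73.0 at 44 h, against 1949.5, 2354 and 1993 or 1613, 1174 and 2943.5 at 20 h. The third 44 h array was the highest of the group for Tcl1, Tcl1b3 and Tcl1b4. Log2 changes against the Oct4 experiment were -5.97, -4.99, -5.29 and -5.83, and against the Sall4 experiment -6.21, -4.94, -5.34 and -5.59, in the order Tcl1, Tcl1b1, Tcl1b3 and Tcl1b4. All were called lower, against 24.4% and 22.9% of probe sets. All lay below the 20 h arrays without overlap, as did 31.9% and 25.2% of probe sets.

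In embryos with the Oct4 MO, Tcl1 went from 6155, 5547 and 6102 to 67.6, 32.4 and 225. Tcl1b1 went from 5661, 5557 and 5848 to 194, 255 and 555. The third array at 44 h was the highest for both. Tcl1b3 went from 3981, 4066 and 4207 to 164, 41.6 and 114, and Tcl1b4 from 2586, 2319.7 and 2947 to 71.1, 29.7 and 22.4. The log2 changes of -5.91, -4.16, -5.21 and -5.62 were all called lower, against 23.5% of probe sets, and did not overlap between times, as for 27.8%.

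Embryos with the Sall4 MO went from 4859.7, 5305 and 6439.8 to 249, 308 and 124 for Tcl1. Tcl1b1 went from 3907, 4003 and 5137 to 480.5, 241 and 326. Tcl1b3 went from 2466, 2089 and 2624 to 291, 358 and 516, so that 16.2% of its 20 h mean remained at 44 h, against 1.93% in the uninjected embryos set against the same experiment. Tcl1b4 went from 1364.5, 1774 and 2271 to 196, 454 and 13.5. The third Sall4 MO array was the highest of its group for Tcl1b3 and the lowest for Tcl1b4 and Tcl1. The log2 changes of -4.59, -3.62, -2.61 and -3.64 were all called lower, against 22.8% of probe sets, and again did not overlap, as for 27.4%. Over the 7 time comparisons all 28 member values were called lower, and all 448 values under other settings or with an array left out were called lower too.

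**Figure D2:**
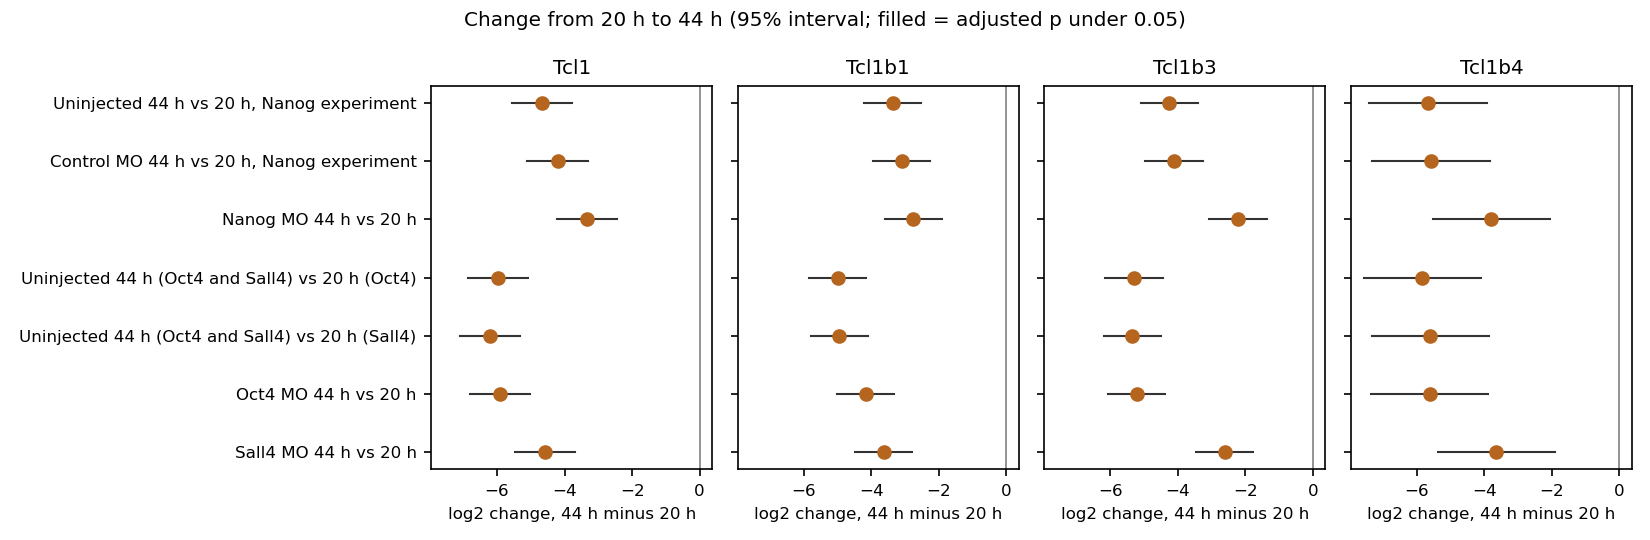
Log2 change of each member from 20 h to 44 h in the 7 time comparisons, with 95% intervals from the fit over 42 arrays; filled points have an adjusted p under 0.05. All 28 points are filled and lie below 0, from -6.21 (Tcl1) to -2.22 (Tcl1b3), and the Nanog MO and Sall4 MO points of Tcl1b3 lie nearest to 0.

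At 20 h the members lay in the upper part of each array's intensity range. Tcl1 lay between the 98.8th and the 99.8th percentile of the probe sets on the 12 arrays of the Oct4 and Sall4 set, and between the 92.1st and the 97.6th on the 9 Nanog arrays. Tcl1b1 lay between 98.6 and 99.8 in the former and 96.9 and 99.1 in the latter, and Tcl1b3 between 95.9 and 99.3 and between 94.1 and 98.0. Tcl1b4 reached lower, from 92.7 to 98.1 in the Oct4 and Sall4 set and from 84.0 to 93.5 on the Nanog arrays. No member was called in any of the 4 comparisons at 20 h, nor did any of the 16 values reach an unadjusted p under 0.05 in limma (log2 -0.40 to 0.42, lowest adjusted p = 0.916). The share of all probe sets called was 1.72% for the Oct4 MO, 0.253% for the Sall4 MO, 0.612% for the Nanog MO against the control MO and 0.142% for the control MO against uninjected embryos. With the Oct4 MO, the lowest array lay above the highest uninjected array for 3 of the 4 members (Tcl1, Tcl1b1 and Tcl1b3), a separation seen in 8.26% of probe sets. The differences were 0.42 for Tcl1 (95% interval -0.47 to 1.31), 0.22 for Tcl1b1 (-0.63 to 1.06), 0.42 for Tcl1b3 (-0.43 to 1.27) and 0.31 for Tcl1b4 (-1.43 to 2.06). The median of all probe sets in that comparison was -0.04. The median of 34 other maternal genes, introduced further on, was also higher on these Oct4 MO arrays (10.39 to 10.64) than on the uninjected ones (9.43 to 9.88, both in log2(intensity + 16)), and its part in the member values was not tested. An exact permutation test of 3 arrays against 3 cannot give a p below 0.1. The limma fit gives each probe set a common spread for both times, so the 20 h tests and intervals also carry scatter at 44 h. The SD of Tcl1b3 in log2(intensity + 16) was 0.12 in uninjected and 0.04 in Oct4 MO embryos of this comparison. Over all groups it ran from 0.04 to 0.52 at 20 h and from 0.30 to 1.10 at 44 h. Small differences at 20 h may therefore be missed. Fitting each experiment's 20 h arrays alone added no call.

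At 44 h the members were examined for each MO against the control MO of the same set. With the Sall4 MO all 4 estimates were positive and Tcl1 and Tcl1b3 were called higher, against 1.64% of all probe sets. Tcl1b3 was the clearest: the control MO arrays read 41.99, 101 and 28.7 and the Sall4 MO arrays 291, 358 and 516, with no overlap. Its log2 difference was 2.55 (SE 0.41, adjusted p = 0.000416), and 9.31% of all probe sets were higher on every Sall4 MO array. Tcl1 read 51.6, 95.6 and 55.8 with the control MO and 249, 308 and 124 with the Sall4 MO. Its log2 difference of 1.49 (SE 0.44, adjusted p = 0.0482) also came without overlap, but lay at the threshold: the call was lost under 5 of 10 other settings and without 5 of the 6 arrays left out in turn. Tcl1b1 (log2 0.76, SE 0.41, adjusted p = 0.367) read 121, 213 and 269.7 with the control MO and overlapped with the Sall4 MO arrays. Tcl1b4 (log2 2.08, SE 0.85, adjusted p = 0.185) read 37.8, 13.3 and 8.46 with the control MO, and the third Sall4 MO array, at 13.5, lay among them. Without that array Tcl1b4 had a log2 difference of 3.22 (adjusted p = 0.0224).

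Against the uninjected embryos of the same set, Tcl1 (log2 1.70, SE 0.44, adjusted p = 0.0145) and Tcl1b3 (log2 2.33, SE 0.41, adjusted p = 0.000606) were again called higher with the Sall4 MO, against 3.53% of probe sets. This comparison shares its Sall4 MO arrays with the one above. Tcl1, Tcl1b1 and Tcl1b3 did not overlap with the uninjected arrays, as for 10.1% of all probe sets. The Tcl1 call was lost when the arrays of the experiment were fitted alone (adjusted p = 0.125), and without the first or the second uninjected array (adjusted p = 0.0808 and 0.0564) or the second Sall4 MO array (adjusted p = 0.106). Tcl1b4 was called without the third Sall4 MO array (log2 3.09, adjusted p = 0.0208).

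With the Nanog MO at 44 h, Tcl1b3 was called higher than with the control MO, and the other 3 members were not, while 3.47% of probe sets were called higher. Tcl1b3 read 472, 308 and 357 with the control MO and 2902, 2254 and 680.2 with the Nanog MO. The lowest Nanog MO array lay above the highest control array, as for 12.2% of probe sets, and the log2 difference was 2.10 (SE 0.41, adjusted p = 0.00214). The call was lost when the 9 Nanog arrays at 44 h were fitted alone (adjusted p = 0.113). Tcl1 (log2 1.26, SE 0.44, adjusted p = 0.0857) and Tcl1b4 (log2 2.16, SE 0.85, adjusted p = 0.14) had positive estimates whose 95% intervals, 0.36 to 2.15 and 0.42 to 3.90, lay above 0 before adjustment. Tcl1 was called without the first control array (log2 1.73, adjusted p = 0.024) and with 64 added in place of 16 (log2 1.11, adjusted p = 0.036). Tcl1b4 was called without the third Nanog MO array (log2 3.64, adjusted p = 0.00253). Tcl1b1 differed by 0.50 (95% interval -0.34 to 1.34, adjusted p = 0.592).

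With the Oct4 MO no member was called at 44 h, although 12.3% of probe sets were called against the control MO and 15.8% against uninjected embryos. Against the control MO the log2 differences were 0.28 for Tcl1 (95% interval -0.61 to 1.18), 0.62 for Tcl1b1 (-0.22 to 1.46), 0.71 for Tcl1b3 (-0.13 to 1.56) and 0.66 for Tcl1b4 (-1.08 to 2.40). Against uninjected embryos, Tcl1b1 had the largest estimate (log2 1.05, SE 0.41, adjusted p = 0.0836) and its arrays did not overlap, as for 13.4% of probe sets. It was called without the first Oct4 MO array (log2 1.35, adjusted p = 0.0448). In the direct comparison of the 2 oligomers, Tcl1b3 was lower with the Oct4 MO than with the Sall4 MO on every array (log2 -1.83, SE 0.41, adjusted p = 0.00463), while 4.29% of probe sets were called lower and 10.5% were lower on every array. That call was lost when the 12 arrays of the set at 44 h were fitted alone (adjusted p = 0.0521). It was also lost without the second Oct4 MO array (log2 -1.37, adjusted p = 0.0511). Tcl1 differed by -1.21 (adjusted p = 0.0873) and was called without the third Oct4 MO array (log2 -1.85, adjusted p = 0.00631) or the third Sall4 MO array (log2 -1.56, adjusted p = 0.0405). Tcl1b1 differed by -0.14 (95% interval -0.98 to 0.70) and Tcl1b4 by -1.42 (-3.16 to 0.32).

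**Figure D3:**
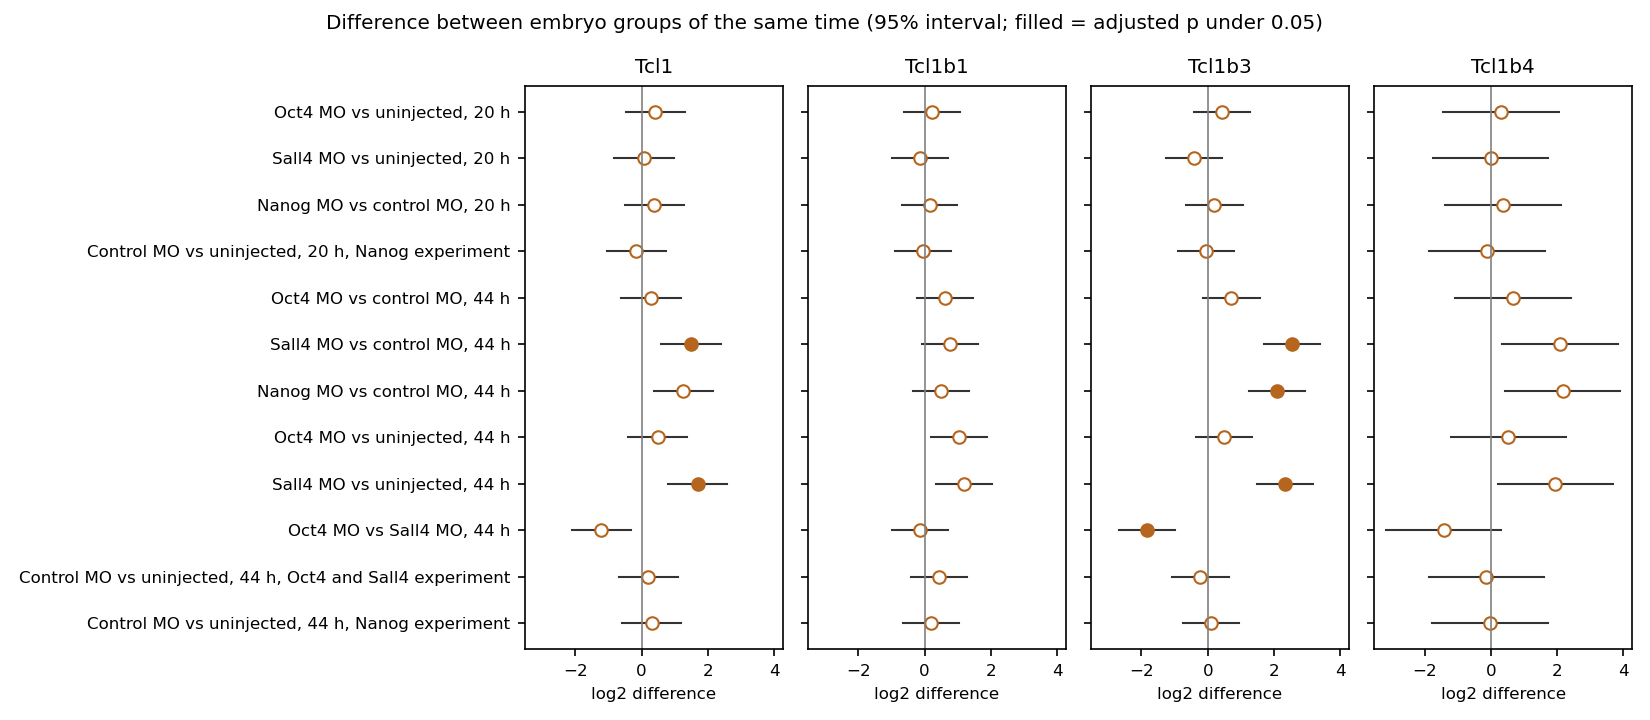
Log2 difference of each member between groups of the same time, first-named minus second-named group, with 95% intervals; filled points have an adjusted p under 0.05. Filled points appear at 44 h, for Tcl1 and Tcl1b3 with the Sall4 MO, for Tcl1b3 with the Nanog MO and for Tcl1b3 between the Oct4 MO and the Sall4 MO, and the intervals of Tcl1b4 are the widest.

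Injection of the control MO itself moved no member by the test. At 44 h the 8 differences from uninjected embryos, in the 2 sets together, ran from -0.22 to 0.43 on the log2 scale with no unadjusted p under 0.05 in limma. In these comparisons 0.0592% (Oct4 and Sall4 set) and 0.193% (Nanog set) of probe sets were called.

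The difference between the changes over time was tested for each MO. The change of Tcl1b3 with the Sall4 MO was less negative than in uninjected embryos by 2.73 on the log2 scale (SE 0.59, adjusted p = 0.0161), with 0.549% of all probe sets called in that direction. Under the fit of these experiments alone its adjusted p was 0.0891. This test shares its 44 h arrays with the Sall4 MO comparison against uninjected embryos above. For Tcl1, Tcl1b1 and Tcl1b4 the differences were 1.62 (adjusted p = 0.197), 1.32 (adjusted p = 0.283) and 1.96 (adjusted p = 0.484). With the Nanog MO, Tcl1b3 differed from the control MO by 1.89 (SE 0.59, adjusted p = 0.133), and was called without the third 44 h Nanog MO array (2.52, adjusted p = 0.0103). The other 3 differences with the Nanog MO were 0.35 to 1.80, none called, and 0.521% of probe sets were called in that direction. With the Oct4 MO the 4 differences from uninjected embryos were 0.07 to 0.83, none called, while 3.24% of probe sets were called in that direction.

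Levels can be ordered within an intensity scale and a probe set. On the Nanog arrays all 4 members had the same order at 20 h, Nanog MO above uninjected above control MO, with overlapping neighbours. At 44 h the Nanog MO mean was again the highest for all 4, and only for Tcl1b3 did it not overlap with the next group (1945 ± 1143 against 382 ± 216 in uninjected embryos). In the other set the Oct4 MO mean was the highest of all groups at 20 h and the Sall4 MO mean the highest at 44 h for all 4 members. Most of these top groups overlapped with the next group. The exceptions were Tcl1b1 at 20 h and Tcl1b3 at 44 h. Tcl1b1 at 44 h was 349 ± 122 with the Sall4 MO and 335 ± 193 with the Oct4 MO. Tcl1b3 at 44 h was 388 ± 115 with the Sall4 MO, 106 ± 61.4 with the Oct4 MO, 63.7 ± 18.1 uninjected and 57.4 ± 38.7 with the control MO, and of these neighbours only the Sall4 MO and Oct4 MO groups did not overlap.

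The 4 members tracked each other across the arrays. After centring within each intensity scale, the 6 pairwise correlations (Pearson) over 42 arrays were 0.94 to 0.97, most of which is the shared difference between times. With the group means removed, they were 0.64 to 0.88 over the 21 arrays at 20 h and 0.17 to 0.48 over the 21 arrays at 44 h. Values of one array share its RNA and its amplification, and the Tcl1b probe sets may share transcripts, so these are descriptions. The probe sets most like Tcl1 over the 42 arrays were those of C86187 (r = 0.98), Tent4a, Bmp5, Snx9 and Oog3 (each r = 0.97). Those most like the mean of the 3 Tcl1b probe sets were Obox5 (r = 0.98), Mcu, Siah2, Arpc5l and Stradb (each r = 0.97).

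Other maternal transcripts were read from a list of 44 oocyte genes, of which 35 were on the array and 34 tested. In uninjected embryos of the Nanog experiment 23 of the 34 were called lower at 44 h and 1 higher, while 17.3% of all probe sets were called lower. The median log2 change was -1.45 against 0.01 for all probe sets. Obox5, an oocyte-specific homeobox gene, had the largest fall of the list (4232 ± 346 to 92.4 ± 18.2, log2 -5.30, adjusted p = 1.38e-08). Bcl2l10, an apoptosis regulator of the oocyte, followed (log2 -4.13), then Uchl1, a ubiquitin hydrolase (log2 -3.37), and Rfpl4, an oocyte ubiquitin ligase (log2 -3.35). Khdc3, a component of the subcortical maternal complex, rose from 486 ± 349 to 4170.5 ± 735 (log2 3.26, adjusted p = 0.000172).

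At 44 h some genes of the list were higher with each MO than with the control MO. With the Sall4 MO 5 of 34 (14.7%) were called higher and none lower, against 1.64% of all probe sets called higher (median log2 0.35 against -0.05). They were Oosp1, a secreted oocyte protein (1080 ± 460.1 against 269 ± 118, log2 1.96, adjusted p = 0.00427), Zp1, an egg coat protein (log2 1.85, adjusted p = 0.0441), Zfp36l2, an RNA-binding protein (log2 1.05, adjusted p = 0.0294), Omt2a (log2 1.03, adjusted p = 0.00652) and the oocyte growth factor Bmp15 (log2 0.65, adjusted p = 0.0248). With the Nanog MO 3 (8.82%) were called higher and none lower, against 3.47% of all probe sets (median 0.55 against 0.02), namely Oosp1 (log2 1.70, adjusted p = 0.01), the oocyte growth factor Gdf9 (log2 1.08, adjusted p = 0.00509) and Omt2a (log2 0.73, adjusted p = 0.0447). With the Oct4 MO 5 (14.7%) were called higher and none lower, against 4.94% of all probe sets called higher and 12.3% called in either direction (median 0.34 against -0.04). They were Nlrp4f (log2 1.72, adjusted p = 0.000668), Uchl1 (log2 1.59, adjusted p = 0.0436), Trim75 (log2 1.15, adjusted p = 0.0248), Bmp15 (log2 0.76, adjusted p = 0.0027) and Nlrp14 (log2 0.64, adjusted p = 0.0365). The calls of Zp1 and Uchl1 were each lost under 10 of 16 alternatives. When the arrays of each experiment were fitted alone, these counts of higher genes were 0 with the Sall4 MO, 0 with the Nanog MO and 1 with the Oct4 MO. The 3 comparisons within the 2 sets share control arrays where they share a set, and the list was chosen with earlier results of these data known.

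The maternal list median per array was set beside the members, chiefly Tcl1b3. On the 44 h Oct4 and Sall4 arrays it was 7.26 to 7.52 in uninjected, 7.45 to 7.74 in control MO, 7.89 to 8.49 in Oct4 MO and 7.85 to 8.34 in Sall4 MO embryos, in log2(intensity + 16). The Oct4 MO and Sall4 MO arrays covered similar list medians. Tcl1b3, the only member called between these groups, was 5.85 to 7.49 in the former and 8.26 to 9.05 in the latter. The other members did not separate. All Sall4 MO arrays of Tcl1b1 lay inside its Oct4 MO range of 7.71 to 9.16. Tcl1 (5.60 to 7.91 and 7.13 to 8.34) and Tcl1b4 (5.26 to 6.44 and 4.88 to 8.88) overlapped between the Oct4 MO and Sall4 MO arrays. The part of the list in the member values was not tested. Of the 34 list genes, 2 were called lower and 1 higher with the Oct4 MO than with the Sall4 MO. Of all probe sets, 4.29% were called lower. The list was not run under alternatives in this comparison. Oosp1 was lower with the Oct4 MO than with the Sall4 MO (244 ± 159.5 against 1080 ± 460.1, log2 -2.27, adjusted p = 0.000457), as was Zp1 (101 ± 61.4 against 397 ± 189, log2 -1.88, adjusted p = 0.024), and Bcl2l10 was higher (394 ± 198 against 123 ± 84.1, log2 1.62, adjusted p = 0.0295). On the Nanog arrays the third Nanog MO array had a list median of 10.2, at the top of the control MO range of 9.83 to 10.2, and the other 2 had 10.7 and 10.9. Its Tcl1b3 value of 9.44 lay above the highest control value of 8.93 and close to the highest uninjected value of 9.34. Its values of Tcl1 (8.93), Tcl1b1 (9.07) and Tcl1b4 (5.37) lay inside the control MO ranges.

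**Figure D4:**
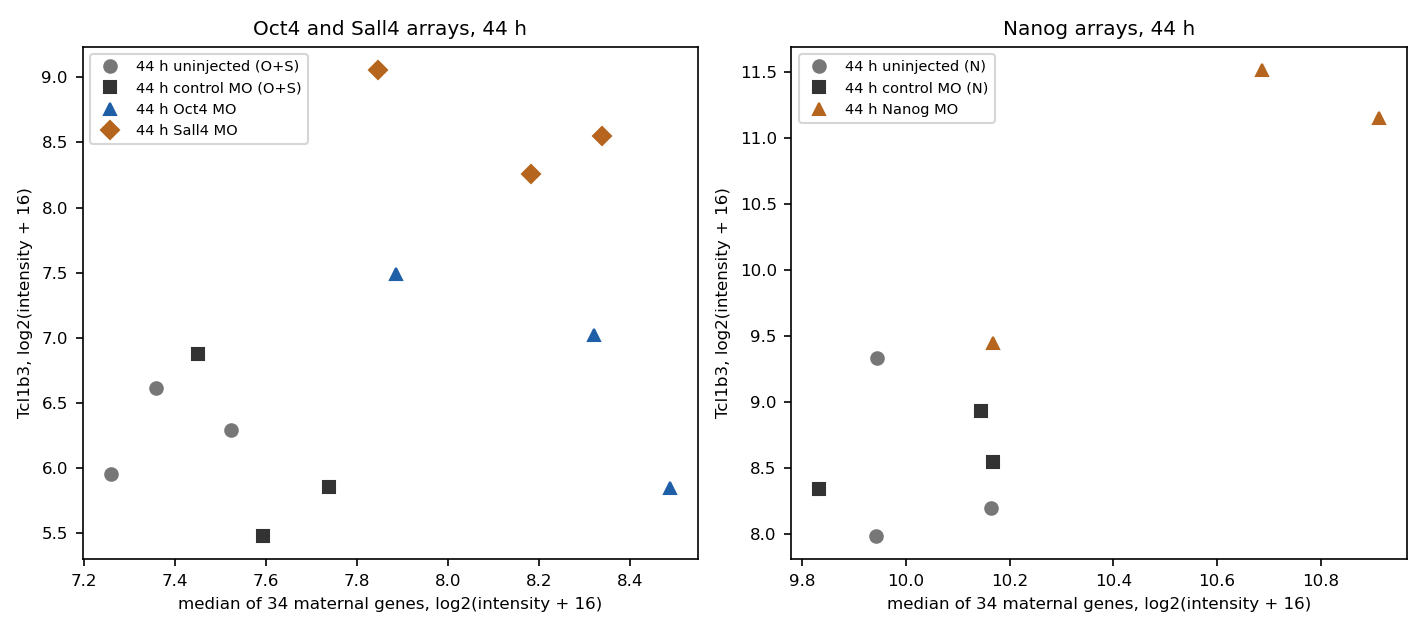
Tcl1b3 against the median of 34 maternal genes on each 44 h array, both in log2(intensity + 16), with 1 point per array and the 2 intensity scales in separate panels. In the left panel the Sall4 MO arrays lie between 8.26 and 9.05 on the Tcl1b3 axis and all other arrays lie at or below 7.49; in the right panel 2 of the 3 Nanog MO arrays stand apart on both axes.

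Markers of cells that might accompany an embryo were read as well. Of 10 cumulus and granulosa cell markers 8 were on the array, and Fshr and Has2 lay below the array median on all 42 arrays. Amhr2 exceeded the median on at least 1 array in all 14 groups, Ptgs2 in 5 groups, Inhba in 4 and Amh in 1. The summed intensity of the list at 44 h was 746 to 1094 with the control MO, 1059 to 1200.1 in uninjected embryos, 1144 to 1622 with the Oct4 MO and 1355 to 1842 with the Sall4 MO. Foxl2 and Tnfaip6 exceeded the array median on at least 1 array with the Oct4 MO and with the Sall4 MO, and on none with the control MO or in uninjected embryos. On the Nanog arrays at 44 h the sum was 1535 to 2917 with the control MO and 2480.1 to 3303 with the Nanog MO. Of 6 B and T lymphocyte markers, cells that can express Tcl1, 5 were on the array, and Cd3e and Ptprc lay below the median on all arrays. Ms4a1 exceeded it on at least 1 array in all 7 groups at 20 h and in 1 group at 44 h (Nanog MO), Cd79b in 6 groups and Cd79a in 3. The 44 h sum was 101 to 117 with the control MO, 103 to 139 with the Oct4 MO and 82.5 to 95.5 with the Sall4 MO, and on the Nanog arrays 259 to 332.6 with the control MO and 230.6 to 490.4 with the Nanog MO. Of 8 blood and stroma markers 7 were on the array. Hba-a1, Col3a1 and Dcn lay below the median on all arrays, whereas Col1a1 exceeded it on at least 1 array in 12 groups, Col1a2 in 8, Pdgfrb in 7 and Thy1 in 3. The 44 h sum of this list was 70.5 to 107 with the control MO, 53.1 to 105 with the Oct4 MO and 54.1 to 83.9 with the Sall4 MO, and on the Nanog arrays 743 to 999 with the control MO and 814 to 872 with the Nanog MO. The part of these lists in the member values was not tested.

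The Akt pathway around the family was followed in a list of 43 genes, of which 40 were on the array and 39 tested. In uninjected embryos of the Nanog experiment 17 were called lower and 5 higher at 44 h than at 20 h. Of all probe sets, 17.3% were called lower. The list median was -0.78 against 0.01 for all probe sets. Among the kinases themselves, Akt1 fell from 2608 ± 319 to 396 ± 101 (log2 -2.69, SE 0.47, adjusted p = 4.64e-05) and Akt2 from 4313 ± 537 to 2152 ± 927 (log2 -1.09, adjusted p = 0.00469). Pdpk1, the kinase that phosphorylates the activation loop of Akt, fell by 0.83 on the log2 scale (adjusted p = 0.00196). Rictor and Mapkap1, subunits of the mTORC2 complex that phosphorylates the hydrophobic motif of Akt, had log2 changes of -1.64 and -1.81. Mtcp1, another gene of the TCL1 family outside the cluster, fell from 607.2 ± 142 to 93.6 ± 25.2 (log2 -2.51, adjusted p = 0.00584).

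Among the substrates and effectors in the list, Wee2, the oocyte kinase that inhibits Cdk1, fell most (log2 -4.14, adjusted p = 1.07e-05), followed by Pde3a, the phosphodiesterase of the oocyte (log2 -3.79, adjusted p = 0.00248). The transcription factor Foxo1, which Akt keeps out of the nucleus, also fell (log2 -2.63, adjusted p = 0.0032). The phosphatase Phlpp2, which removes phosphate from Akt, fell by 2.78 and the PI3K catalytic subunit Pik3cd fell by 2.77 on the log2 scale. Akt1, Akt2, Pdpk1, Rictor, Mapkap1, Mtcp1 and Foxo1 were named here for their roles, after their values were seen. The 5 that rose were Sgk1, a kinase related to Akt (log2 2.46), the cell death regulator Bad (log2 2.21), the PI3K subunit Pik3cb (log2 1.41), Gsk3b, a kinase inhibited by Akt (log2 1.32), and the mTOR complex subunit Mlst8 (log2 1.18).

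No Akt pathway gene was called in any of the 4 comparisons at 20 h. At 44 h against the control MO, 3 of 39 were called higher and 2 lower with the Oct4 MO, 1 higher with the Sall4 MO, and 3 higher and 1 lower with the Nanog MO. These shares of 12.8%, 2.56% and 10.3% stood beside 12.3%, 3.99% and 6.12% of all probe sets. Gsk3a was lower with the Oct4 MO (180.5 ± 94.98 against 712 ± 191, log2 -1.997, adjusted p = 0.00326). Gsk3b was lower with the Nanog MO (1547 ± 1267 against 5339 ± 239.7, log2 -2.37, adjusted p = 0.00127). Pik3r3, a PI3K regulatory subunit, was higher with the Nanog MO (3587 ± 801 against 868 ± 477, log2 2.13, adjusted p = 0.0377), a call lost under 7 of 16 alternatives. The cell cycle inhibitor Cdkn1b was higher with the Nanog MO (764 ± 493 against 172 ± 30.5, log2 1.85, adjusted p = 0.00853). Of the others with the Oct4 MO, Akt1 (log2 1.38, adjusted p = 0.0489) and Foxo4 (log2 1.72, adjusted p = 0.0447) were called higher and Akt2 lower (log2 -0.87, adjusted p = 0.0474). The calls of Akt1 and Akt2 were each lost under 11 of 16 alternatives, and that of Foxo4 under 10. Pik3r1, another PI3K regulatory subunit, was called higher with each of the 3 oligomers (log2 0.89, 0.93 and 0.83 in the order Oct4, Sall4 and Nanog). The calls of Gsk3a, Gsk3b, Pik3r3, Cdkn1b and Pik3r1 were lost when the arrays of the experiment were fitted alone. Against uninjected embryos at 44 h, 6 of 39 were called higher and 4 lower with the Oct4 MO (25.6%, beside 15.8% of all probe sets). With the Sall4 MO 3 of 39 were called higher, beside 3.53% of all probe sets called higher, and 1 was called lower. Akt1 was called higher with both (log2 2.06, adjusted p = 0.00234, and log2 1.93, adjusted p = 0.0089). These comparisons share their MO arrays with those above, and the list was not run under alternatives in them.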

How the data were processed

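Mouse preimplantation embryos in 14 groups of 3 were measured on Affymetrix arrays. The deposited values are linear intensities, 1 per probe set and array, from RNA amplified with NuGEN WT-Ovation One-Direct and biotin-labelled, per the labels' protocols. The summary method and any normalization between arrays are not given in the sources used here. Groups were taken from the sample labels. log2(intensity + 16) was fitted with limma 3.58.1 (R 4.3.3) in 1 model over 42 arrays (28 residual degrees of freedom), with Benjamini-Hochberg adjustment over 25339 probe sets whose group mean exceeded the mean of its arrays' medians in at least 1 group. Control probe sets (64) were left out. Adjusted p under 0.05 was called. The number of arrays limits the precision.

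Probe sets were named from the platform annotation (34945 with 1 symbol, 932 with several, 9160 with none). All probe sets of the family were named, up to 4 genes per direction of each other list by size of change (all where 5 or fewer were called), the targets of the oligomers, and the 5 probe sets most like Tcl1 and the Tcl1b mean. Against uninjected embryos at 44 h only Akt1 of these lists was named. The members, lists and tests were chosen with earlier results of these data known. Same-numbered replicates deviated together by the rule used (every correlation over 0.1) in 1 of 19 comparisons. Alternatives were other pseudocounts, centring, quantile normalization, filters, the experiment's arrays alone, a replicate block, array weights, 1 probe set per gene, and leaving out each array. A fit of the experiment's arrays alone held only arrays of the times compared.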

Additional observations from a re-analysis of the deposited data

Results flagged for a closer look

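The change of Tcl1b3 from 20 h to 44 h differed between Sall4 MO and uninjected embryos by the test of that difference. The change was -2.61 on the log2 scale with the Sall4 MO and -5.34 in uninjected embryos, a difference of 2.73 (SE 0.59, adjusted p = 0.0161, limma). All 3 Sall4 MO arrays at 44 h (291, 358 and 516) lay above all 3 uninjected ones (62.7, 46.2 and 82.3). Of all probe sets, 10.1% separated in this way, and 0.549% were called higher in the test of the difference. The call was lost when the arrays of these experiments were fitted alone (adjusted p = 0.0891, limma). The 20 h and 44 h arrays of this set belong to differently labelled experiments, so time and experiment cannot be told apart in either change. The difference shares its arrays with the comparisons of Sall4 MO and uninjected embryos at 44 h (log2 2.33) and at 20 h (log2 -0.40, not called). It is not a separate result. The Sall4 experiment had no control MO group at 20 h, so the effect of injection on this difference was not tested.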

How the results depend on the processing

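All values here are log2 differences or numbers of members called, out of 4. The 28 falls over time were called under every alternative run. Of the member values under the 10 other settings, 899 kept their direction and side of the threshold, 9 lost a call, 1 gained one and 11 changed sign; with 1 array left out the numbers were 581, 9, 8 and 50. No value that changed sign was called. With the arrays of the experiment fitted alone, members called were 1 (Sall4 MO against control MO), 0 (Nanog MO against control MO), 1 (Sall4 MO against uninjected), 0 (Oct4 MO against Sall4 MO) and 0 (Sall4 MO change over time). The Sall4 MO count against control MO was also 1 with 64 added, without a filter, with the whole-table filter and with the replicate block, which took the Tcl1 call (adjusted p = 0.0628) and changed no other member call. The Nanog MO count against control MO was 2 with 64 added. With 1 array left out the counts were 1 to 3 for the Sall4 MO against control MO and against uninjected, 0 to 1 for the Oct4 MO against uninjected, 0 to 2 for the Oct4 MO against the Sall4 MO, 1 to 2 for the Nanog MO against control MO, and 0 to 1 for the Nanog MO change over time. Sign changes under other settings were as follows. In the control MO against uninjected at 44 h (Nanog), Tcl1b4 was 0.032 with 64 added, 0.024 with centring and 0.13 with quantile normalization, and in the other set 0.14 with array weights. The control MO change over time of Tcl1b4 was -0.011 with 1 added. The Oct4 MO change over time with 64 added was -0.10 for Tcl1b4, -0.057 for Tcl1b3 and -0.060 for Tcl1, and with quantile normalization -0.0157 for Tcl1b3. In the Sall4 MO against uninjected at 20 h, Tcl1 was -0.039 with centring and Tcl1b4 0.020 with array weights. Sign changes with 1 array left out fell in the following ranges. The Sall4 MO against uninjected at 20 h gave -0.041 to 0.17 (Tcl1), -0.31 to 0.081 (Tcl1b1) and -0.30 to 0.36 (Tcl1b4). The control MO against uninjected gave -0.12 to 0.030 (Tcl1b1), -0.16 to 0.014 (Tcl1b3) and -0.39 to 0.092 (Tcl1b4) at 20 h. At 44 h on the Nanog arrays it gave -0.17 to 0.67 (Tcl1), -0.080 to 0.69 (Tcl1b1), -0.16 to 0.51 (Tcl1b3) and -0.58 to 0.56 (Tcl1b4), and in the other set -0.052 to 0.56 (Tcl1), -0.62 to 0.075 (Tcl1b3) and -0.50 to 0.50 (Tcl1b4). The control MO change over time gave -0.018 to 0.83 (Tcl1), -0.022 to 0.75 (Tcl1b1), -0.12 to 0.56 (Tcl1b3) and -0.47 to 0.68 (Tcl1b4). The Oct4 MO change over time gave -0.57 to 0.59 (Tcl1), -0.28 to 0.55 (Tcl1b3) and -0.15 to 0.84 (Tcl1b4). The Nanog MO change over time gave -0.14 to 1.00 (Tcl1b1). The Oct4 MO at 44 h gave -0.36 to 0.80 against control MO and -0.15 to 1.01 against uninjected (Tcl1), and -0.56 to 0.16 against the Sall4 MO (Tcl1b1). The counts over all probe sets moved by over 1.5 times in several comparisons, such as 199 to 1362 around 1012 for the Sall4 MO and 364 to 2547 around 1550 for the Nanog MO, both against control MO. The causes were not tested. The low 44 h intensities of Tcl1b4 lie near the added constant, and 3 arrays a group limit every comparison.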
